A study of Mus musculus with 21 samples.

Results

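The transcripts of 10 genes that write, remove or maintain DNA methylation or that form Polycomb repressive complex 2 (PRC2) were followed through RNA sequencing of mouse hematopoietic stem cells (HSCs). The genes were Dnmt1, Dnmt3a, Dnmt3b, Tet1, Tet2, Tet3, Uhrf1, Ezh1, Ezh2 and Suz12, taken by symbol from the 21000 rows of the count table. The rule that picks them names symbols and uses no measured value, but the genes were chosen with earlier results of these data known. Each gene passed the filter on low counts in every comparison.

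HSCs (3000–3500 cells per library) came from bone marrow of wild-type mice, with 3 libraries in each of 7 groups, 21 in all. Mice aged 10 weeks at the start received 5-fluorouracil (5-FU), a cytotoxic drug that kills dividing marrow cells and drives HSCs into division, or PBS, its vehicle control, by intraperitoneal injection. The study's methods sorted HSCs of C57BL/6 mice as CD150+CD48-Flt3-LSK cells, and the labels of these samples give no strain. The dose of 5-FU was 150 mg/kg. The groups given PBS once or 5-FU once had their HSCs collected at day 6, which is 5 days after the injection. Those given PBS 3 times or 5-FU 3 times, with 21 days between injections, were collected at day 6 after the last injection. The groups collected at day 21, which is 20 days after the last injection, had received 5-FU once or 3 times, and no PBS group was collected at that time. The old group consisted of untreated mice aged 2 years. For HSCs taken 5 days after 5-FU, the study's methods widened the c-Kit gate to dim cells and left the Mac-1 antibody out of the lineage cocktail, so treatment and gate cannot be told apart at day 6. The column names of the PBS once and 5-FU once day 6 libraries carry a suffix that the other 15 lack. Its meaning is not given in the sources used here, so the comparisons of these 6 libraries with other groups also cross it.

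As background, DNMT1 copies CpG methylation onto the new DNA strand at replication, guided by UHRF1, which recognises hemimethylated sites, while DNMT3A and DNMT3B place methylation on unmethylated sites. The TET enzymes oxidise methylcytosine and so start its removal. In PRC2, EZH2 or its paralog EZH1 methylates lysine 27 of histone H3 on a scaffold that includes SUZ12. EZH2 is typical of dividing cells and EZH1 of resting ones, and loss of Dnmt3a or Tet2 is known to expand HSC clones.

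The start regions of the genes are shown first, searched for letters bound by E2F factors, which are common at cell cycle genes. RefSeq windows of 300 bases on GRCm38.p6, from 250 bases before to 50 bases after a transcription start, were found for 10 of 10 genes, 15 windows in all. The letters searched for, on both strands, were TTTCGCGC, TTTGGCGC, TTTCCCGC and TTTGCCGC. They occurred in 2.26% of the 32851 windows of the table and in 4 of these 15, which belonged to Dnmt1, Uhrf1, Ezh2 and Suz12. Each line gives a match in capitals with the bases around it on the strand of the gene, with its position on GRCm38.
Dnmt1 (chr9:20952824-20952853, − strand): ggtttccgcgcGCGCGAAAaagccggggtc
Dnmt1 (chr9:20952574-20952601, − strand): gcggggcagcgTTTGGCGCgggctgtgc
Uhrf1 (chr17:56304117-56304146, + strand): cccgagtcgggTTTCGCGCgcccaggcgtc
Ezh2 (chr6:47595009-47595038, − strand): gggttgctgcgTTTGGCGCtcggtccggtc
Suz12 (chr11:79992876-79992905, + strand): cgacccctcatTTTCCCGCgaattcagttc

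Counted from the transcription start of its window, the match lay at −219 and +34 for Dnmt1, where the first was read on the other strand, at −185 for Uhrf1, at +4 for Ezh2 and at −219 for Suz12. In GENCODE vM21 the Dnmt1 and Ezh2 matches fell in exons of those genes, the Uhrf1 match in an intron, and the Suz12 match outside its transcripts. Ezh1, Tet1, Tet2, Tet3, Dnmt3a and Dnmt3b had no such letters in their windows. The CHR letters TTTGAA, another element of cell cycle promoters, occurred in 17.9% of all windows and in 3 of these 15 (Dnmt1, Dnmt3b and Suz12), the CCAAT letters in 37.4% and in 7 of the 15, and TATAAA in 13.6% and in none of the 15. A match is a description of letters, and binding was not measured here. Each of the E2F strings holds CG, and the share over all windows was not matched for base content. Whether the matches bear on the levels of the genes was not tested.

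In GENCODE vM21 on GRCm38, the maintenance genes are Dnmt1 on chromosome 9 (20907209 to 20959888) and Uhrf1 on chromosome 17 (56303321 to 56323486), and the de novo methyltransferases Dnmt3a on chromosome 12 (3806007 to 3914443) and Dnmt3b on chromosome 2 (153649450 to 153687730). The TET genes are Tet1 on chromosome 10 (62804570 to 62908996), Tet2 on chromosome 3 (133463679 to 133545139) and Tet3 on chromosome 6 (83362373 to 83459084), and the PRC2 genes Ezh1 on chromosome 11 (101191115 to 101226463), Ezh2 on chromosome 6 (47530139 to 47595341) and Suz12 on chromosome 11 (79993106 to 80034123).

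Levels are given as normalized CPM, the counts of a gene scaled to a fixed total per library, with TMM factors over the 21 libraries. To order the genes against each other, CPM was divided by the length of the longest GENCODE transcript. In HSCs of mice given PBS once, Dnmt3b (216 to 226 CPM per kilobase) and Dnmt1 (209 to 212 CPM per kilobase) were the highest, followed by Uhrf1 (104 to 130.5 CPM per kilobase). Ezh2 (27.5 to 35.4 CPM per kilobase) and Dnmt3a (27.2 to 33.3 CPM per kilobase) overlapped and were followed by Suz12 (15.2 to 20.2 CPM per kilobase). Ezh1 and Tet3 overlapped, at 8.63 to 9.72 and 8.07 to 9.37 CPM per kilobase, above Tet2 at 6.83 to 7.94 CPM per kilobase. Tet1 was the lowest of the 10, at 2.78 to 3.07 CPM per kilobase. Dnmt3b lay above Dnmt1 in this group, and Dnmt1 (185 to 205 CPM per kilobase) above Dnmt3b (161 to 173 CPM per kilobase) at day 21 after 5-FU 3 times, while both overlapped in the other 5 groups. At day 6 after 5-FU 3 times, Uhrf1 (233 to 303 CPM per kilobase) reached into the range of Dnmt3b (279 to 356 CPM per kilobase).

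**Figure D1:**
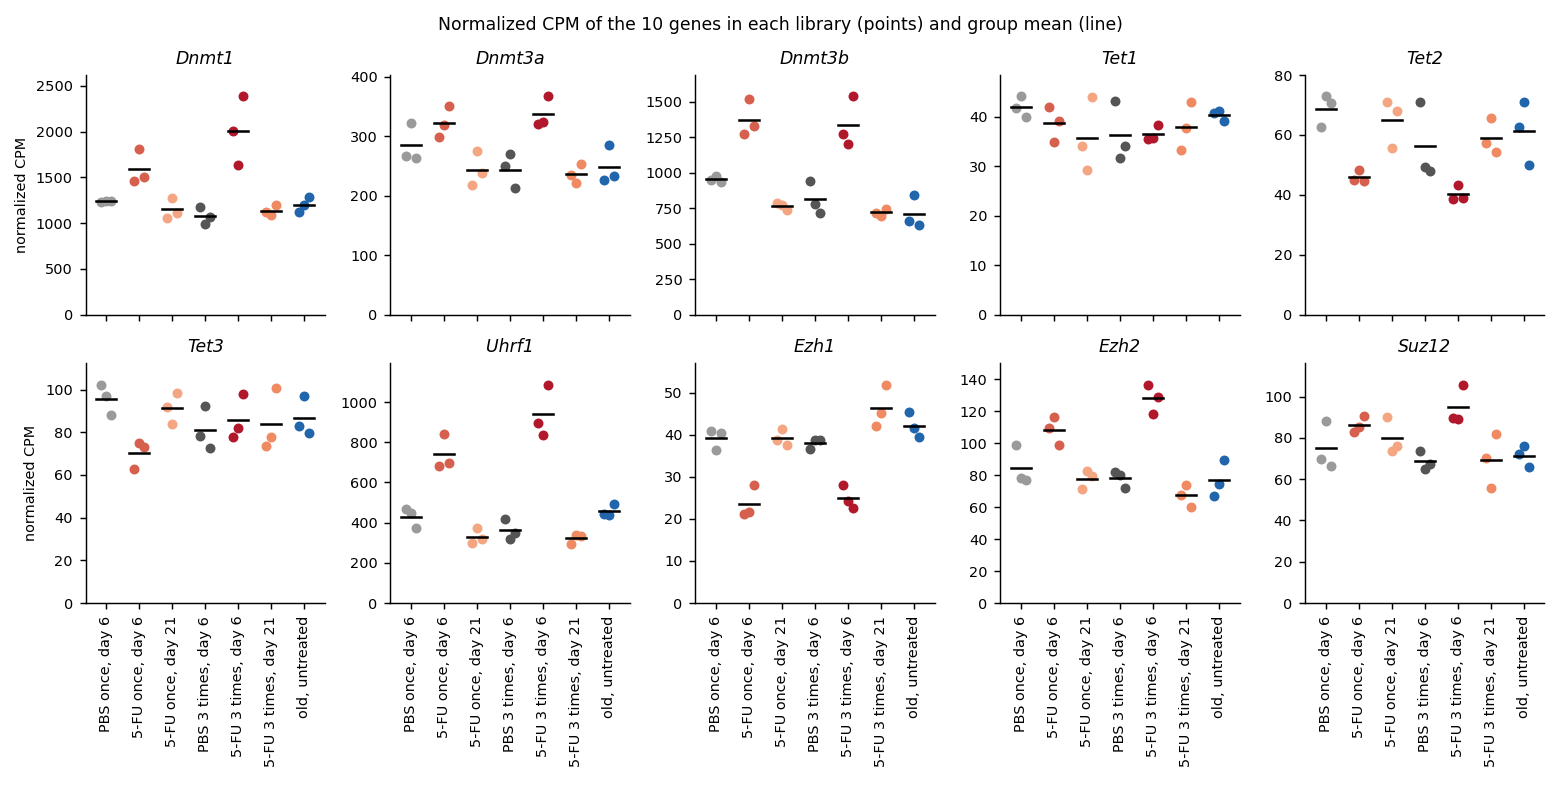
Normalized CPM (vertical axis, from 0) of each of the 10 genes in the 21 libraries, by group; points are libraries and lines are group means. At day 6 after 5-FU, Dnmt1, Dnmt3b and Uhrf1 lie above and Ezh1 and Tet2 below the matching PBS libraries. At day 21 their group means lie nearer the PBS means. Even so, Dnmt3b and Uhrf1 lie below every PBS once library at day 21 after 5-FU once. Ezh1 lies above every PBS 3 times library at day 21 after 5-FU 3 times.

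Does 5-FU change the transcripts of these regulators in HSCs? At day 6 after 5-FU once, Dnmt1, Uhrf1 and Dnmt3b rose and Tet2, Tet3 and Ezh1 fell, and 4 of the 10 genes did not pass the test. After 5-FU 3 times, Dnmt1, Uhrf1, Dnmt3a, Dnmt3b, Ezh2 and Suz12 rose, Ezh1 fell, and 3 did not pass. Among all genes tested by edgeR's quasi-likelihood test at an adjusted p of 0.05, 11.5% were higher and 10.6% lower after 5-FU once, against 3 and 3 of the 10 genes. After 5-FU 3 times the shares were 9.84% higher and 8.3% lower, against 6 and 1 of the 10. With library size alone as the scale, the share of higher genes among all calls went from 52.0% to 41.0% after 5-FU once and from 54.2% to 35.6% after 5-FU 3 times, where the median of all genes was −0.11 (log2). In these bulk libraries, fewer cells of a kind and less RNA per cell cannot be told apart.

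Uhrf1 showed the largest rise of the 10 genes. It stood at 468, 448 and 375 CPM after PBS once and at 682, 839.7 and 698 CPM after 5-FU once. After PBS 3 times it was at 420.0, 319 and 348 CPM, and after 5-FU 3 times at 895, 835 and 1085 CPM. All 6 libraries of 5-FU-treated mice lay above all 6 of PBS-treated mice. The log2 fold change was 0.77 ± 0.11 (SE, n = 3 and 3, adjusted p = 0.00496) after 5-FU once and 1.35 ± 0.14 (adjusted p = 0.00265) after 5-FU 3 times, that is 1.71-fold and 2.55-fold.

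Dnmt1, the maintenance methyltransferase, was at 1227, 1237 and 1242 CPM after PBS once and at 1464, 1804 and 1501 CPM after 5-FU once. The corresponding values were 1180.4, 990.0 and 1066 CPM after PBS 3 times and 2011, 1631 and 2384 CPM after 5-FU 3 times. The groups did not overlap in either pair, and the PBS once libraries lay within 15 CPM of each other. Dnmt1 rose by 0.35 ± 0.085 on the log2 scale (SE, adjusted p = 0.0256) after 5-FU once and by 0.88 ± 0.14 (adjusted p = 0.00864) after 5-FU 3 times. The call after 5-FU once was lost without PBS once replicate 1, 2 or 3, at adjusted p = 0.0667, 0.0735 and 0.0648, with the value between 0.26 and 0.41 over the 6 libraries left out in turn.

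Of the de novo methyltransferases, Dnmt3b was the more abundant and was called after both schedules. Its level was 946, 976 and 935 CPM after PBS once and 1272, 1520.5 and 1330.4 CPM after 5-FU once. It was 939, 783 and 718 CPM after PBS 3 times and 1273, 1205 and 1538 CPM after 5-FU 3 times, again without overlap. The log2 fold changes were 0.52 ± 0.075 (adjusted p = 0.00487) and 0.70 ± 0.13 (adjusted p = 0.0135).

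Dnmt3a, the de novo enzyme best known from clonal hematopoiesis, had no call after 5-FU once. Its libraries were at 267, 323 and 263 CPM after PBS and at 298, 318 and 351 CPM after 5-FU, and the groups overlapped (log2 fold change 0.17 ± 0.10, adjusted p = 0.257, 95% interval −0.026 to 0.37). After PBS 3 times it was at 249, 269.6 and 212 CPM and after 5-FU 3 times at 321, 323 and 367 CPM, a rise of 0.45 ± 0.11 (adjusted p = 0.0305) without overlap. That call rested on nearly every library. It was lost without 5-FU 3 times replicate 1, 2 or 3 (adjusted p = 0.0599, 0.0626 and 0.0941) and without PBS 3 times replicate 1 or 3 (adjusted p = 0.0737 and 0.0683).

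Of the TET genes, Tet2 and Tet3 fell after 5-FU once, and none was called by edgeR after 5-FU 3 times, where 1 (Tet2) had an unadjusted p under 0.05. Tet2, the TET gene most often lost in clonal hematopoiesis, was at 62.7, 72.9 and 70.6 CPM after PBS once and at 44.9, 48.3 and 44.7 CPM after 5-FU once. It fell by 0.59 ± 0.084 (SE) on the log2 scale (adjusted p = 0.00461), to 0.665 of the PBS level, with no overlap. After PBS 3 times Tet2 was at 71.2, 49.4 and 48.1 CPM, with replicate 1 well above the other libraries of its group, and after 5-FU 3 times at 38.6, 43.3 and 39.1 CPM. The groups did not overlap, but the log2 fold change of −0.50 ± 0.16 did not pass (adjusted p = 0.0712). It passed with DESeq2 (adjusted p = 0.0254), with library size as the scale (adjusted p = 0.0360) and with all 21 libraries in one fit (adjusted p = 0.0266).

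Tet3 was at 102, 96.9 and 88.0 CPM after PBS once and at 63.0, 75.1 and 73.0 CPM after 5-FU once. It fell by 0.45 ± 0.10 (SE) on the log2 scale (adjusted p = 0.0175) without overlap, a call that was lost without PBS once replicate 1 or 2 (adjusted p = 0.0517 and 0.0519). After PBS 3 times and 5-FU 3 times its libraries, at 78.3, 92.2 and 72.8 CPM and at 77.9, 82.1 and 97.8 CPM, overlapped (log2 fold change 0.062 ± 0.13, negative with library size as the scale, adjusted p = 0.770, 95% interval −0.19 to 0.31). Tet1, the least abundant of the 3, did not pass after either schedule. It was at 41.8, 44.2 and 40.0 CPM after PBS once and at 42.0, 35.0 and 39.2 CPM after 5-FU once, with log2 fold changes of −0.12 ± 0.089 (adjusted p = 0.351) after 5-FU once and −0.012 ± 0.12 (adjusted p = 0.955) after 5-FU 3 times.

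The catalytic subunits of PRC2 had opposite signs after both schedules. Ezh1 was at 40.9, 36.3 and 40.4 CPM after PBS once and at 21.1, 21.6 and 28.1 CPM after 5-FU once. After 3 administrations it was at 36.6, 38.7 and 38.8 CPM in the PBS group and at 28.0, 24.3 and 22.7 CPM in the 5-FU group. Every library of 5-FU-treated mice lay below every PBS library. Ezh1 fell by 0.74 ± 0.13 (SE, adjusted p = 0.00864) and by 0.63 ± 0.10 (adjusted p = 0.00816) on the log2 scale, to 0.599 and 0.648 of the PBS levels.

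Ezh2 was at 98.7, 78.4 and 76.7 CPM after PBS once and at 109.6, 116 and 99.2 CPM after 5-FU once, where the groups were separated by less than 1 CPM. The log2 fold change of 0.35 ± 0.12 did not pass (adjusted p = 0.0717). It passed without PBS once replicate 1 (adjusted p = 0.0249), with DESeq2 (adjusted p = 0.0382) and with all 21 libraries in one fit (adjusted p = 0.0415). After PBS 3 times it was at 82.3, 80.3 and 71.9 CPM and after 5-FU 3 times at 137, 118 and 129 CPM. This rise, of 0.69 ± 0.093 (adjusted p = 0.00530), separated the groups widely.

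Suz12, the scaffold subunit, overlapped between groups after 1 administration, at 69.8, 88.3 and 66.6 CPM with PBS and at 83.0, 85.2 and 90.5 CPM with 5-FU (log2 fold change 0.19 ± 0.11, adjusted p = 0.257). It passed without PBS once replicate 2, the highest library of that group (adjusted p = 0.0491). After 3 administrations it was at 73.7, 65.2 and 67.5 CPM with PBS and at 89.5, 89.4 and 106 CPM with 5-FU. It rose by 0.44 ± 0.10 on the log2 scale (SE, adjusted p = 0.0252), and the call was lost without 5-FU 3 times replicate 3 (adjusted p = 0.0661) and without PBS 3 times replicate 2 or 3 (adjusted p = 0.0755 and 0.0733). An antisense gene shares 3.60% of the exonic bases of Suz12 and another 2.61% of those of Ezh2. The SMART-Seq v4 and Nextera XT kits used do not mark strand, so reads of such overlaps cannot be told apart.

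**Figure D2:**
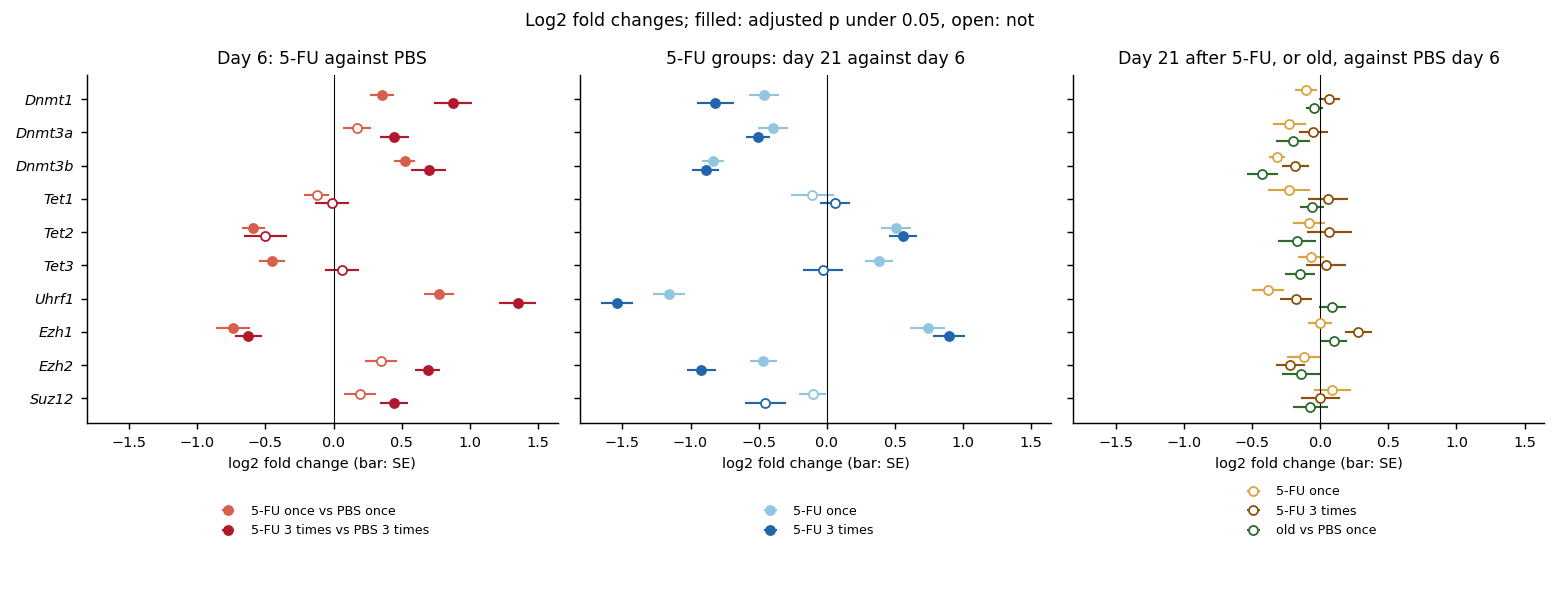
Log2 fold change of each gene (horizontal axis; bars are SE, n = 3 and 3 libraries) in 7 comparisons; filled points passed an adjusted p of 0.05. The left panel holds 13 filled points for 5-FU against PBS at day 6, the middle panel 15 for day 21 against day 6 after 5-FU, and the right panel 0.

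Was the response larger after 3 administrations than after 1? The difference between the 5-FU effects was tested as an interaction over 12 libraries. It was positive for 10 of 10 genes, beside 49.9% of all genes tested. None of the 10 passed the test, with an unadjusted p under 0.05 for 4 genes (Dnmt1, Tet3, Uhrf1 and Ezh2) and no call of the 10 by DESeq2. A positive difference is a larger rise for genes that rose after 5-FU once, but not a larger response for genes that were lower. Ezh1 was at −0.74 (log2) after 5-FU once and −0.63 after 5-FU 3 times, and Tet2 at −0.59 and −0.50. Tet3 was at −0.45 and 0.062, and Tet1 at −0.12 and −0.012. Of all genes tested, 0.34% were called higher and 0.31% lower. The largest differences were 0.59 ± 0.19 for Uhrf1 (log2, SE, adjusted p = 0.168), 0.53 ± 0.18 for Dnmt1 (adjusted p = 0.181) and 0.53 ± 0.16 for Tet3 (adjusted p = 0.157). The calls that appear after only one of the schedules, those of Dnmt3a, Ezh2, Suz12, Tet2 and Tet3, are therefore not shown to differ between the schedules. The 95% intervals of the difference were −0.017 to 0.59 for Dnmt3a, 0.058 to 0.65 for Ezh2, −0.047 to 0.57 for Suz12 and −0.27 to 0.47 for Tet2.

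The interaction is computed from the PBS libraries of both schedules too, so its sign is not independent of the PBS groups compared here. Log2 values of PBS 3 times against PBS once were negative for 10 of 10 genes, from −0.29 for Tet2 to −0.041 for Ezh1. Of all genes tested, 49.6% were positive. None of the 10 passed the test, 1 (Dnmt1) had an unadjusted p under 0.05, and DESeq2 called none of them. Of all genes, 0.00781% were called higher and 0.00781% lower. Dnmt1 was lower in 3 of 3 libraries, by −0.19 ± 0.070 on the log2 scale (SE, adjusted p = 0.326). The groups differ in age, in the number of injections and in the column suffix, which cannot be told apart.

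Do the levels return after 5-FU? Between day 6 and day 21 after 5-FU once, Dnmt1, Dnmt3a, Dnmt3b, Uhrf1 and Ezh2 fell and Tet2, Tet3 and Ezh1 rose, 5 and 3 of the 10 genes, where 13.7% of all genes were lower and 12.3% higher. After 5-FU 3 times, Dnmt1, Dnmt3a, Dnmt3b, Uhrf1 and Ezh2 fell and Tet2 and Ezh1 rose, 5 and 2 of the 10, where 10.8% of all genes were lower and 8.68% higher. These comparisons share the day 6 libraries of 5-FU-treated mice with those above. By the study's methods the wider gate was used only 5 days after 5-FU, so day and gate cannot be told apart here. With library size as the scale, the median of all genes moved from 0.0081 to 0.12 (log2) for 5-FU 3 times and the share of higher genes among all calls from 44.4% to 63.5%, and the calls of the 10 genes did not change. Of the 10 genes, 4 were called after 5-FU once without day 6 replicate 1 or 2, and 5 without day 6 replicate 3 or day 21 replicate 1 or 3.

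At day 21 Uhrf1 was at 299, 373 and 317 CPM after 5-FU once and at 295, 338 and 332 CPM after 5-FU 3 times, below every library of day 6 after 5-FU. It fell by 1.16 ± 0.12 (SE, adjusted p = 0.00148) and by 1.54 ± 0.12 (adjusted p = 0.000624) on the log2 scale. Dnmt3b, at 784, 771 and 740.2 CPM after 5-FU once and at 719, 695 and 747 CPM after 5-FU 3 times, fell by 0.84 ± 0.081 (adjusted p = 0.00131) and 0.89 ± 0.10 (adjusted p = 0.00216). Neither gene lost its calls when a library was left out.

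Dnmt1 was at 1055, 1276 and 1114 CPM and at 1116, 1088 and 1202 CPM at day 21 after 1 and 3 administrations, below every 5-FU library of day 6. Its log2 fold changes from day 6 were −0.46 ± 0.11 (adjusted p = 0.0219) and −0.82 ± 0.13 (adjusted p = 0.00762). The first call was lost without day 21 replicate 1 or 3 or day 6 replicate 2 (adjusted p = 0.0614, 0.0602 and 0.0582). Dnmt3a fell by 0.40 ± 0.11 (adjusted p = 0.0342) after 5-FU once and by 0.51 ± 0.089 (adjusted p = 0.00975) after 5-FU 3 times. For Dnmt3a after 5-FU once, leaving out day 21 replicate 1 or 3 (adjusted p = 0.0776 and 0.0887) or day 6 replicate 1, 2 or 3 (adjusted p = 0.0535, 0.0899 and 0.110) ended the call.

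Ezh1 was at 38.8, 41.3 and 37.5 CPM at day 21 after 5-FU once and at 42.1, 45.0 and 51.8 CPM after 5-FU 3 times, above every 5-FU library of day 6. Its rise from day 6 was 0.74 ± 0.13 (log2, SE, adjusted p = 0.00746) and 0.89 ± 0.12 (adjusted p = 0.00362). Ezh2 was at 71.3, 82.7 and 79.7 CPM and at 67.9, 73.8 and 60.3 CPM, a fall of 0.47 ± 0.10 (adjusted p = 0.0151) after 5-FU once and of 0.92 ± 0.11 (adjusted p = 0.00228) after 5-FU 3 times. The former was lost without day 6 replicate 1 or 2 (adjusted p = 0.0503 and 0.0577). Suz12 did not pass, with log2 fold changes of −0.10 ± 0.10 (adjusted p = 0.480) and −0.45 ± 0.15 (adjusted p = 0.0752). The second passed without day 21 replicate 3 (adjusted p = 0.0457), with DESeq2 (adjusted p = 0.0291) and with all 21 libraries in one fit (adjusted p = 0.0165).

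Tet2 was at 71.1, 55.5 and 68.1 CPM and at 57.4, 65.7 and 54.3 CPM at day 21 after 1 and 3 administrations, above every 5-FU library of day 6. It rose by 0.50 ± 0.11 (adjusted p = 0.0173) and 0.56 ± 0.10 (adjusted p = 0.0114) on the log2 scale, and the first call was lost without day 6 replicate 1 or 3 (adjusted p = 0.0607 and 0.0641). Tet3 rose by 0.38 ± 0.10 (adjusted p = 0.0315) after 5-FU once and was at −0.028 ± 0.15 (adjusted p = 0.912) after 5-FU 3 times. Its call was lost without day 21 replicate 1 or 3 (adjusted p = 0.0630 and 0.0797) and without day 6 replicate 1, 2 or 3 (adjusted p = 0.0948, 0.0582 and 0.0768). Tet1 overlapped between the days after both schedules.

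Against PBS, none of the 10 genes passed the test at day 21 after either schedule. After 5-FU once, Dnmt3b and Uhrf1 had an unadjusted p under 0.05 and DESeq2 called Dnmt3b, while 0.0712% of all genes were called higher and 0.15% lower. After 5-FU 3 times, 1 gene (Ezh1) had an unadjusted p under 0.05 and DESeq2 called none, with 0.0396% of all genes higher and 0.00792% lower. Dnmt3b lay below every PBS once library, at −0.32 ± 0.057 on the log2 scale (SE, adjusted p = 0.0772, and 6.56e-08 by DESeq2). In data simulated from day 6 comparisons, a larger share of the calls by DESeq2 than of those by edgeR was false. The day 21 comparison was not simulated, so the share of false calls in it is not known. Uhrf1 was also below every PBS once library, at −0.38 ± 0.12 (adjusted p = 0.230). After 5-FU 3 times the corresponding values were −0.18 ± 0.10 for Dnmt3b (adjusted p = 0.493) and −0.18 ± 0.11 for Uhrf1 (adjusted p = 0.557), with overlap, and Ezh1 lay above every PBS 3 times library at 0.28 ± 0.10 (adjusted p = 0.300). The PBS libraries were taken at day 6, so time and treatment cannot be told apart in these comparisons.

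What differs in HSCs of old mice? None of the 10 genes passed the test against PBS once, where 1.44% of all genes were higher and 0.443% lower, or against PBS 3 times, where 0.553% were higher and 0.444% lower. Dnmt3b had an unadjusted p under 0.05 in the first comparison and was called by DESeq2. Uhrf1 had one in the second and DESeq2 called no gene of the 10. Dnmt3b was at 657, 845 and 630.0 CPM in old mice, below every PBS once library. The log2 fold change was −0.42 ± 0.11 (SE, adjusted p = 0.126, 95% interval −0.64 to −0.20), and it passed with DESeq2 (adjusted p = 0.0109) and without old replicate 2, the highest of the group (adjusted p = 0.0209). Against PBS 3 times the Dnmt3b groups overlapped, with −0.20 ± 0.14 (adjusted p = 0.703).

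Uhrf1, at 442, 439 and 494 CPM in old mice, overlapped with PBS once (0.089 ± 0.10, log2, adjusted p = 0.782) and lay above every PBS 3 times library (0.33 ± 0.11, adjusted p = 0.288). Dnmt3a was at 226, 285 and 232 CPM and Tet2 at 62.7, 71.0 and 49.8 CPM, both overlapping with both PBS groups. Their log2 fold changes against PBS once were −0.20 ± 0.12 for Dnmt3a (adjusted p = 0.532, 95% interval −0.44 to 0.040) and −0.17 ± 0.14 for Tet2 (adjusted p = 0.683, 95% interval −0.44 to 0.11). Old mice were untreated, so age and the injections cannot be told apart.

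Ratios within a library do not depend on how libraries are scaled. The ratio of Ezh2 to Ezh1 counts was 2.41, 2.16 and 1.90 after PBS once and 5.18, 5.38 and 3.53 after 5-FU once. It was 2.25, 2.07 and 1.86 after PBS 3 times and 4.87, 4.87 and 5.70 after 5-FU 3 times. Every day 6 library of 5-FU-treated mice exceeded every library of the other 5 groups, among which the highest ratio was 2.41. The ratio was 2.15-fold and 2.50-fold higher than with PBS, a log2 difference of 1.10 and 1.32. The two-sided exact permutation test over the 20 assignments of 6 libraries gave p = 0.1 for each, the smallest it allows. At day 21 the ratio ranged from 1.84 to 2.13 after 5-FU once and from 1.16 to 1.64 after 5-FU 3 times, and in old mice from 1.48 to 2.26.

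The ratio of Uhrf1 to Dnmt1 was higher in every day 6 library of 5-FU-treated mice than in every PBS library of the same schedule. The ratio of Uhrf1 to Dnmt1 counts was 0.382, 0.362 and 0.302 after PBS once and 0.466, 0.465 and 0.465 after 5-FU once, a log2 difference of 0.42. After 3 administrations the difference was 0.49, with 0.322 to 0.356 for PBS and 0.445 to 0.512 for 5-FU, and neither pair of groups overlapped (exact permutation p = 0.1 and 0.1). The ratio of Dnmt3a to Dnmt3b ranged from 0.282 to 0.331 after PBS once and from 0.209 to 0.264 after 5-FU once (log2 difference −0.34, exact permutation p = 0.1), and the log2 difference was −0.25 after 3 administrations (exact permutation p = 0.2). In old mice it ranged from 0.338 to 0.368 and lay above PBS once (log2 difference 0.24, exact permutation p = 0.1), but it overlapped with PBS 3 times (0.266 to 0.344). Tet2 made up 28.5 to 36.9% of the counts of the 3 TET genes after PBS 3 times and 22.3 to 26.8% after 5-FU 3 times, without overlap, a difference of −7.30 percentage points (exact permutation p = 0.1). After 1 administration the ranges were 30.3 to 35.5% and 28.5 to 30.5% and overlapped (exact permutation p = 0.2). The lowest p adjusted over the 12 tests of the 4 ratios was 0.171, and 3 libraries against 3 cannot pass 0.05.

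**Figure D3:**
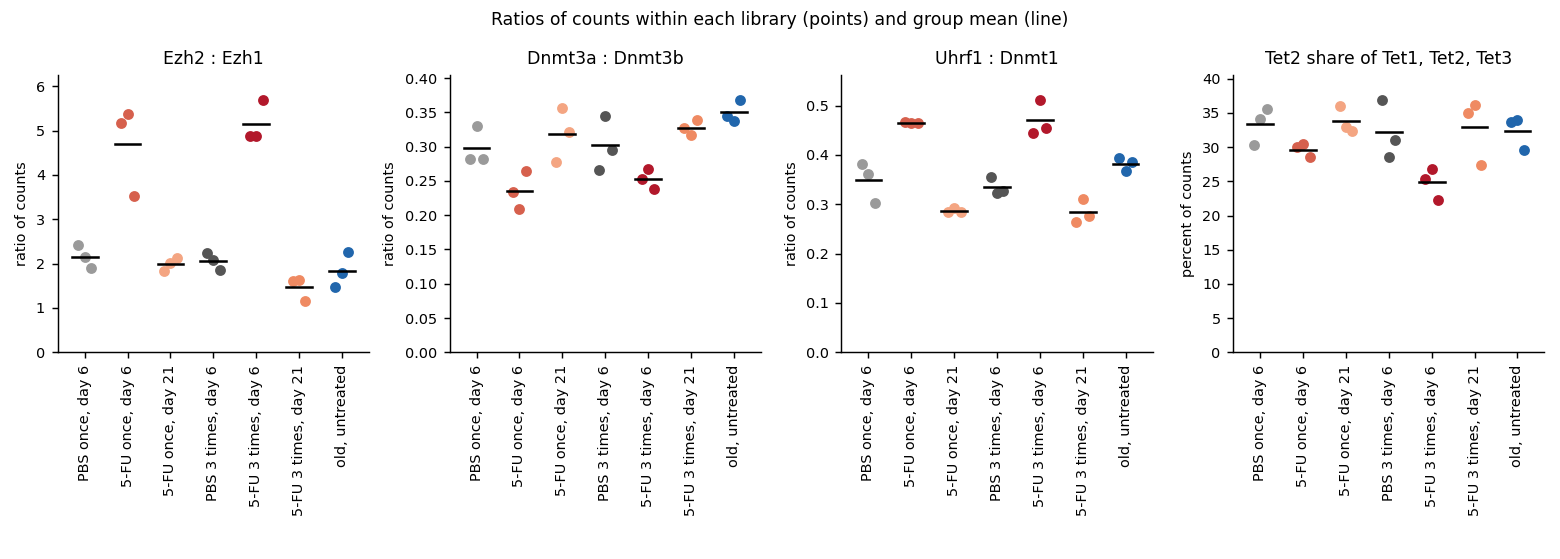
Ratio of counts within each library for Ezh2 to Ezh1, Dnmt3a to Dnmt3b and Uhrf1 to Dnmt1, and the percent of TET counts that are Tet2 (vertical axes, from 0), by group; points are libraries and lines are group means. The Ezh2 to Ezh1 ratio is above 3.5 in the 6 libraries of day 6 after 5-FU and below 2.5 in the other 15.

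The partners of these genes were read from lists. Of 9 other PRC2 subunits and accessory factors, 1 rose and 1 fell after 5-FU once, and 2 rose and 1 fell after 5-FU 3 times, beside 11.5% higher and 10.6% lower of all genes after 5-FU once and 9.84% and 8.3% after 5-FU 3 times. Phf19 rose (log2 0.71 and 1.49) and its paralog Phf1 fell (log2 −1.12 and −1.13), after both schedules, and both are accessory subunits that recruit PRC2. Epop, another accessory factor, rose after 5-FU 3 times (log2 0.73). Of 20 PRC1 subunits, Cbx7, a reader of the PRC2 mark, fell after both schedules (log2 −0.80 and −0.70), Cbx6 fell after 5-FU 3 times, and none rose by edgeR, with 1 and 3 higher at an unadjusted p under 0.05. Of the 5 measured H3K27 demethylases and ASXL-BAP1 genes none was called, and none had an unadjusted p under 0.05. The medians were 0.10 and 0.17 (log2) for the PRC2 partners and −0.073 and −0.070 for PRC1, beside −0.00056 and −0.012 over all genes tested.

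Of the partners of DNA methylation, 3 of 9 measured rose and 1 fell after 5-FU once, and 3 of 10 rose after 5-FU 3 times, with 1 lower there at an unadjusted p under 0.05. The background was 11.5% higher and 10.6% lower of all genes after 5-FU once and 9.84% and 8.3% after 5-FU 3 times. Hells, a chromatin remodeler that DNA methylation requires, rose after both (log2 0.74 and 1.05). After 5-FU once, Usp7 and Cdca7 also rose and Mat2b, a subunit of the enzyme that makes the methyl donor, fell (log2 −0.37). After 5-FU 3 times, Ahcy, which clears the spent methyl donor, rose (log2 0.69), and so did Trdmt1 (log2 0.63), which methylates tRNA rather than DNA. The medians were 0.24 and 0.11 (log2).

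Of 10 measured partners of DNA demethylation, 2 rose and 5 fell after 5-FU once, and 2 rose and 2 fell after 5-FU 3 times, with medians of −0.42 and −0.44 (log2). Over all genes, 11.5% were higher and 10.6% lower after 5-FU once, and 9.84% and 8.3% after 5-FU 3 times. Tdg, the glycosylase that excises oxidised methylcytosine, rose after both schedules (log2 0.65 and 0.66). Of the isocitrate dehydrogenase genes, whose enzymes make the co-substrate of the TET enzymes, Idh1 fell after both (log2 −0.56 and −0.96) and Idh3a rose after both (log2 0.39 and 0.27, the former named after its value was seen). Also lower after both was the repair glycosylase Neil1 (log2 −0.74 and −0.70). Gadd45a fell after 5-FU once (log2 −1.04). In a list of 8 genes for readers of methylated CpG and their relatives, Mbd3 rose after both schedules (log2 0.33 and 0.35). Zbtb4 fell after 5-FU 3 times (log2 −1.35), and the medians of the list were −0.14 and 0.087. Whether each gene of the list encodes a reader was not examined.

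Cell cycle genes moved with these changes. Of 22 S phase genes, 17 rose after 5-FU once and 19 after 5-FU 3 times, and of 15 G2/M genes 8 and 15 rose, with no gene of either list called lower by edgeR or lower at an unadjusted p under 0.05. Beside these, 11.5% of all genes were higher and 10.6% lower after 5-FU once, and 9.84% and 8.3% after 5-FU 3 times. The medians were 0.43 and 0.71 (log2) for S phase and 0.35 and 0.91 for G2/M. The summed S phase level was 2383 to 2479 CPM after PBS once, 3294 to 3715 after 5-FU once, 2110.2 to 2457 after PBS 3 times and 3529 to 4132 after 5-FU 3 times. At day 21 it was 2017 to 2339 CPM after 5-FU once and 2014 to 2056 CPM after 5-FU 3 times, and in old mice 2242 to 2501 CPM. For the difference between the schedules, 4 of 15 G2/M genes were called higher after 3 administrations and none of 22 S phase genes by edgeR, with 4 higher at an unadjusted p under 0.05 and medians of 0.67 and 0.21. Of all genes, 0.34% were higher and 0.31% lower in that test. What part cell division has in the values of the 10 genes was not tested.

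**Figure D4:**
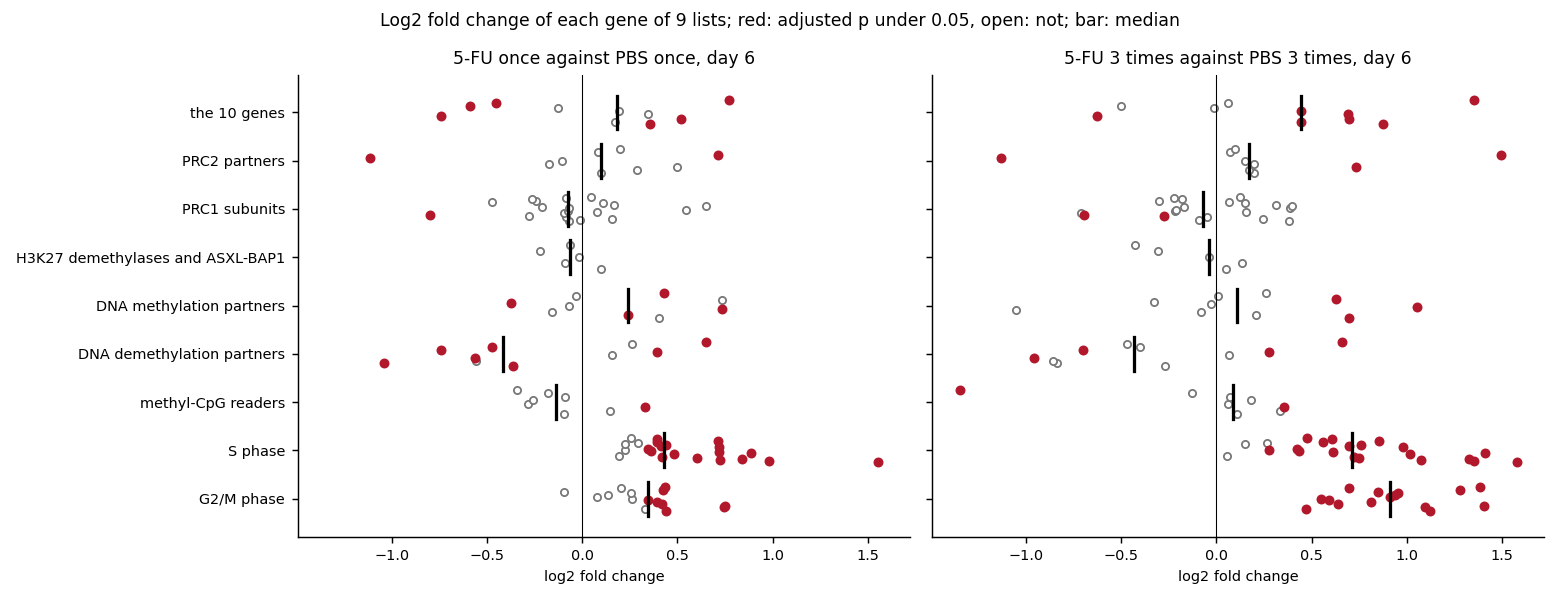
Log2 fold change of each measured gene (horizontal axis) of 9 lists at day 6, for 5-FU once against PBS once (left) and 5-FU 3 times against PBS 3 times (right); red points passed an adjusted p of 0.05 and bars are medians. All 15 G2/M genes and 19 of 22 S phase genes are red and to the right of 0 after 5-FU 3 times, while the 10 genes and the partner lists lie on both sides of 0.

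The genes most alike in pattern were found by Pearson's r of log2(CPM + 1) over the 21 libraries among 10490 genes with a mean of at least 5 CPM. The libraries share groups, so r describes these libraries and is not tested. Uhrf1 was nearest to Mcm6 and Tfdp1 (r = 0.977 and 0.972), Dnmt1 to Mcm7 and Anapc5 (0.962 and 0.954) and Ezh2 to Fen1 and Mcm6 (0.955 and 0.943), of which the Mcm genes and Fen1 act in DNA replication. Dnmt3b was nearest to Abcf1 and Hmga1 (0.929 and 0.927), and Dnmt3a to Suv39h2 and Dnmt3b (0.9 and 0.883). Ezh1 was nearest to Crebl2 and Slc18a2 (0.936 and 0.93), Tet2 to Ppp1r9a and Rad52 (0.917 and 0.887), Suz12 to Eif4g2 and Nol9 (0.875 and 0.824), Tet3 to Prkg1 and Sema4c (0.792 and 0.784) and Tet1 to Hipk2 and Dmxl2 (0.741 and 0.714). Within the 10 genes, r ranged from −0.89 (Dnmt3b and Ezh1) to 0.94 (Dnmt1 and Uhrf1), and was −0.87 for Ezh1 and Ezh2.

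The libraries held 22184885 to 38649033 counts (median 26962256). HSC markers were present in all groups, with a summed level of 3975 to 4100.0 CPM after 5-FU once, 3660.0 to 3823 CPM after 5-FU 3 times and 4968 to 5388 CPM after PBS once, and Kit itself was at 583 to 622 and 728 to 778 CPM in the 5-FU groups of day 6 beside 989 to 1162 and 948 to 1044 CPM with PBS. Other markers did not share this direction. Slamf1 was at 46.6 to 54.0 CPM after 5-FU once and 38.2 to 45.2 CPM after PBS once. Procr was at 32.5 to 33.2 and 25.3 to 26.3 CPM in these groups. After 3 administrations, Slamf1 was at 46.4 to 54.6 CPM with 5-FU and 37.6 to 48.1 CPM with PBS. Procr was then at 15.1 to 23.6 and 23.1 to 29.6 CPM.

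The summed level of the 12 neutrophil and monocyte markers was 60.2 to 73.8 CPM after 5-FU once and 98.3 to 123 CPM after PBS once, with none called higher by edgeR or higher at an unadjusted p under 0.05 after either schedule, and Itgam, which encodes Mac-1, was at 5.00 to 7.16 and 9.12 to 17.4 CPM. Erythroid markers summed to 56.6 to 63.0 CPM after 5-FU once and 22.3 to 24.5 CPM after PBS once, and 8 lymphoid markers to at most 5.15 CPM in any library. Megakaryocyte markers summed to 110.2 to 119 CPM after 5-FU once, 172 to 210.0 CPM after PBS once and 225 to 275 CPM in old mice, and endothelial and stromal markers to 129.8 to 156 and 147 to 272 CPM after 5-FU once and PBS once. Of 13 HSC markers, 3 rose and 4 fell after 5-FU once and 1 rose and 5 fell after 5-FU 3 times. For these and the other markers, the shares of all genes were 11.5% higher and 10.6% lower after 5-FU once. After 5-FU 3 times they were 9.84% and 8.3%. Of the tested markers of other cells, 3 of 8 and 2 of 7 for neutrophils and monocytes and 4 of 7 and 3 of 7 for megakaryocytes fell, with 1 megakaryocyte marker higher at an unadjusted p under 0.05 in each, and 1 of 4 and 2 of 4 for erythroid cells rose with 1 lower in each. No lymphoid marker was called, or had an unadjusted p under 0.05, of 1 and 2 tested, and 1 of 3 and none of 5 endothelial and stromal markers fell, with none of the 5 at an unadjusted p under 0.05. Of the neutrophil, monocyte and lymphoid markers, Ctsg, Ly6g, Cd3e, Ms4a1, Cd8a and Il7r were listed at 0 in every library of 5-FU once at day 6, and Ly6g, Cebpe, Cd3e and Cd8a in those of 5-FU 3 times. Ctsg, Cd3e, Ms4a1, Cd8a and Il7r were also at 0 in every PBS once library. In every PBS 3 times library, Cd3e, Ms4a1, Cd8a and Il7r were at 0. The part of other cell types in the results was not tested.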

How the data were processed

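HSC libraries of 75-base reads were sequenced by the authors, who deposited counts per gene symbol. Reads were mapped with TopHat2 2.0.13 to mm10 (GRCm38), and expression was quantified with Cuffdiff (Cufflinks 2.2.1), both at default settings. Whether the whole-number counts came from Cuffdiff is not given in the sources used here. The deposited counts had no normalization and every column matched a sample. The 10 genes and the lists were chosen with earlier results of these data known.

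Each comparison was fitted by edgeR 4.0.16 (R 4.3.3), with filterByExpr, TMM factors and the quasi-likelihood test on the libraries of its groups, and Benjamini-Hochberg adjustment over all genes tested. A gene was called at an adjusted p under 0.05. SE and 95% intervals (1.96 SE) cover the spread between libraries. The multiplier is that of a normal distribution and ignores the small number of libraries, so the intervals are too narrow. Some exclude 0 where the unadjusted p of the quasi-likelihood test is above 0.05. The 9 comparisons of groups and the interaction share libraries. Ratios were tested by exact permutation (scipy 1.17.1). DESeq2 1.42.0, other factors, filters, a replicate block, one fit of all libraries and leaving out each library were alternatives. Code was tested on simulated data. For 3 simulated libraries against 3, 6.915% of the calls by edgeR and 23.53% of those by DESeq2 were of unchanged genes. For the interaction the shares were 3.974% and 22.22%. These shares hold for 50 genes changed at each of the folds 0.25, 0.5, 2 and 4. No 2 libraries of a group agreed within sampling noise. The methods call the 3 libraries of a group independent experiments. Pairing by replicate number was checked and not found.

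All 10 genes are named. From a pathway list, at most 4 called genes with a mean of at least 1 CPM are named per comparison, by size of change, and Kit, Slamf1, Procr and, for the gate, Itgam from the markers.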

Additional observations from a re-analysis of the deposited data

How the results depend on the processing

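For the 100 log2 fold changes of single genes (10 genes in 10 comparisons), 1360 values under an alternative were obtained, of which 1260 kept the direction and the side of the threshold. Calls were lost in 33 and gained in 15, and the sign changed in 52, over 25 values that were not called and of at most 0.121 (log2) in size. The genes called after 5-FU at day 6 kept their sign under every alternative listed. Log2 values that changed sign with another setting were those of Tet3 with library size as the scale, at −0.039 for 5-FU 3 times against PBS 3 times and 0.083 for day 21 against day 6 after 5-FU 3 times, Tet1 with all 21 libraries in one fit (0.0085 for 5-FU 3 times against PBS 3 times), Ezh1 for day 21 after 5-FU once against PBS once with RLE factors (0.0063), DESeq2 (0.0067) and all genes with at least 1 count (0.0016), and Suz12 for day 21 after 5-FU 3 times against PBS 3 times with a minimum of 10 counts per library (−0.0023). The cause of these changes was not tested.

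For day 21 after 5-FU once against PBS once, 1 of the 10 genes (Dnmt3b) was called with library size as the scale and 1 with DESeq2, and for old against PBS once 1 (Dnmt3b) with DESeq2. Over all genes, DESeq2 called 725 genes for day 21 after 5-FU once against PBS once, 592 for day 21 after 5-FU 3 times against PBS 3 times, 824 for old against PBS once, 569 for old against PBS 3 times, 547 for PBS 3 times against PBS once and 715 for the difference between the schedules, where edgeR called 28, 6, 242, 128, 2 and 86. All 21 libraries in one fit gave 257, 185 and 19 genes for day 21 after 5-FU once against PBS once, day 21 after 5-FU 3 times against PBS 3 times and PBS 3 times against PBS once. Library size as the scale gave 83 for day 21 after 5-FU once against PBS once and 15 for day 21 after 5-FU 3 times against PBS 3 times, where RLE factors gave 3 and a minimum of 10 counts per library gave 23.

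Replicate numbers were shared by the groups, but same-numbered libraries did not deviate together (correlations of −0.0499 to 0.0578), so they share only a number. With the replicate number as a block, 1509 genes were called for 5-FU 3 times against PBS 3 times, 3 for day 21 after 5-FU once against PBS once, 0 for day 21 after 5-FU 3 times against PBS 3 times, 104 for old against PBS once, 30 for old against PBS 3 times, 0 for PBS 3 times against PBS once and 55 for the difference between the schedules. Under the block Dnmt3a (adjusted p = 0.0733) and Suz12 (adjusted p = 0.0583) were not called for 5-FU 3 times against PBS 3 times, nor Tet3 for day 21 against day 6 after 5-FU once (adjusted p = 0.0585), Suz12 was called for day 21 against day 6 after 5-FU 3 times (adjusted p = 0.0404), and Ezh1 for day 21 after 5-FU once against PBS once and Suz12 for day 21 after 5-FU 3 times against PBS 3 times were at 0.00016 and −0.014. It changed no other call of the 10 genes.

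With each library left out in turn, the calls over all genes were 1563 to 1947 for 5-FU once against PBS once (fewest without 5-FU once day 6 replicate 2), 1231 to 1582 for 5-FU 3 times against PBS 3 times (fewest without 5-FU 3 times day 6 replicate 3), 1 to 32 for day 21 after 5-FU once against PBS once (fewest without 5-FU once day 21 replicate 1 and PBS once replicate 2), 1 to 4 for day 21 after 5-FU 3 times against PBS 3 times (fewest without 5-FU 3 times day 21 replicate 2, PBS 3 times replicate 1 and PBS 3 times replicate 3), 1736 to 2978 for day 21 against day 6 after 5-FU once (fewest without 5-FU once day 6 replicate 2), 1351 to 1744 for day 21 against day 6 after 5-FU 3 times (fewest without 5-FU 3 times day 6 replicate 3), 111 to 150 for old against PBS once (fewest without old replicate 2), 20 to 76 for old against PBS 3 times (fewest without old replicate 2), 0 to 1 for PBS 3 times against PBS once and 38 to 170 for the difference between the schedules (fewest without PBS once replicate 1). For the difference between the schedules the most were called without 5-FU 3 times day 6 replicate 2. Of the 10 genes, 4 to 8 were called for day 21 against day 6 after 5-FU once and 0 to 1 for old against PBS once. Values of genes that were not called changed sign with the library left out. For 5-FU 3 times against PBS 3 times, the log2 fold change ran for Tet1 from −0.10 to 0.13 and Tet3 from −0.039 to 0.17. For day 21 after 5-FU once against PBS once, the log2 fold change ran for Tet2 from −0.15 to 0.017, Ezh1 from −0.051 to 0.033, Ezh2 from −0.19 to 0.0069 and Suz12 from −0.0032 to 0.23. For day 21 after 5-FU 3 times against PBS 3 times, the log2 fold change ran for Dnmt3a from −0.14 to 0.030, Tet1 from −0.035 to 0.21, Tet2 from −0.028 to 0.28, Tet3 from −0.10 to 0.15 and Suz12 from −0.13 to 0.14. For day 21 against day 6 after 5-FU once, the log2 fold change ran for Tet1 from −0.27 to 0.030. For day 21 against day 6 after 5-FU 3 times, the log2 fold change ran for Tet1 from −0.032 to 0.15 and Tet3 from −0.17 to 0.073. For old against PBS once, the log2 fold change ran for Dnmt1 from −0.10 to 0.0051, Uhrf1 from −0.0032 to 0.15 and Suz12 from −0.15 to 0.059. For old against PBS 3 times, the log2 fold change ran for Dnmt3a from −0.10 to 0.10, Tet2 from −0.013 to 0.32, Tet3 from −0.014 to 0.19, Ezh2 from −0.14 to 0.067 and Suz12 from −0.0084 to 0.11. For PBS 3 times against PBS once, the log2 fold change ran for Ezh2 from −0.18 to 0.011 and Suz12 from −0.20 to 0.020. For the difference between the schedules, the log2 fold change ran for Tet2 from −0.00019 to 0.29. The difference in the Tet2 share for old against PBS once ran from −2.43 to 0.485 percentage points.

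With 3 libraries a group, changes of up to 0.50 (log2, Tet2 between day 6 and day 21 after 5-FU once) lost their call with 1 library left out, and the ratio tests cannot pass 0.05. Counts are not per molecule, and the p-values measure the spread between these libraries.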

Other observations

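Members of the partner lists also changed between day 6 and day 21 after 5-FU, in comparisons that share the day 6 libraries with those against PBS. Day and sorting gate cannot be told apart in these comparisons. Phf1 rose and Phf19 fell after both schedules (log2 1.30 and 1.61 for Phf1, and −1.39 and −1.85 for Phf19). Of 20 PRC1 subunits, 4 rose after 5-FU once and 5 after 5-FU 3 times, where 12.3% and 8.68% of all genes were higher, Cbx7 the most in each (log2 0.94 and 0.96), and none fell by edgeR, with 1 lower at an unadjusted p under 0.05 in each. Of 10 measured partners of DNA demethylation, 6 rose and 3 fell after 5-FU once, and 5 rose and 1 fell after 5-FU 3 times, where 13.7% and 10.8% of all genes were lower, led by Gadd45a (log2 1.37 and 1.02) and Neil1 (log2 1.05 and 1.08). Hells fell after both (log2 −1.17 and −1.07).

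In old mice, Kdm6a, an H3K27 demethylase, was higher (log2 0.72) and Asxl1, a cofactor of the H2A deubiquitinase BAP1, lower (log2 −0.71) than with PBS 3 times, both called by edgeR's quasi-likelihood test. Of all genes, 0.553% were higher and 0.444% lower in that comparison. The study used mice of both sexes, and sex was not examined here. Against PBS once neither was called, with log2 values of 0.61 and −0.56. No gene of the other 5 partner lists was called in old mice by edgeR against either PBS group, with between 0 and 2 in either direction at an unadjusted p under 0.05 in each list.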
